A study of Mus musculus with 6 samples.

Results

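The genes described here are 7 markers of radial glia and neural stem cells, Nes, Vim, Fabp7, Slc1a3, Prom1, Msi1 and Msi2, out of 21887 protein-coding genes in the reference table. They were chosen by name, and every deposited peak over the RefSeq gene span and 5 kb either side was read. The cells were neural stem and progenitor cells from mouse forebrain at E13.5 (embryonic day), expanded in serum-free medium with EGF and FGF at 20 ng/ml each. One arm received 10 mM crotonate for 24 h, and the other received water for 24 h. The sources used here do not give the strain or say whether embryos were pooled, and growth factor culture selects for dividing progenitors. Histone marks were mapped by CUT&Tag, where a transposase tethered to an antibody inserts sequencing adapters near the mark. Peak lists of 4 of the 6 samples were used, each from 1 library, and the IgG libraries were not used here. Without a replicate, no difference has a check against replicate spread and no p-value is given.

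Radial glia are the progenitors that line the ventricles of the embryonic brain and give rise to neurons and later to glia. Their markers fall into a few functional kinds. Nes and Vim encode the intermediate filament proteins nestin and vimentin. Fabp7 encodes a brain fatty acid binding protein, and Slc1a3 the glutamate transporter GLAST. Prom1 encodes the membrane glycoprotein prominin (CD133), and Msi1 and Msi2 encode Musashi proteins, RNA-binding regulators of translation in stem cells. H3K4me3 sits at active and poised promoters, and H3K27me3, placed by Polycomb complexes, sits over silenced developmental genes. A promoter that carries both is called bivalent. Neither mark is a measure of RNA, and the level of transcripts was not measured in these samples.

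Promoter windows, from 250 bases before to 50 after an annotated start, were available in the RefSeq table (GRCm38.p6) for 6 of the 7 genes, with Msi1 absent. Shown first are the windows of Slc1a3, Fabp7, Nes and Msi2, because they span the range from the poorest to the richest of the 6 in CpG, the dinucleotide whose density goes with H3K4me3 in mammals. Each is written 5′ to 3′ on the strand of the gene, with every CG in capitals, and in order they lie at chr15:8710758-8711057 (minus strand), chr10:57784673-57784972 (plus), chr3:87970843-87971142 (plus) and chr11:88718228-88718527 (minus).
Slc1a3: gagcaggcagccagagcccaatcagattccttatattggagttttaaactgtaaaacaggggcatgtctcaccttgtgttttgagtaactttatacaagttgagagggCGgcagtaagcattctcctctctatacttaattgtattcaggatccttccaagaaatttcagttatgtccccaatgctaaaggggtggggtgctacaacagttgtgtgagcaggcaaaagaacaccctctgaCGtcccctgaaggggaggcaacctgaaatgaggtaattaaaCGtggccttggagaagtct
Fabp7: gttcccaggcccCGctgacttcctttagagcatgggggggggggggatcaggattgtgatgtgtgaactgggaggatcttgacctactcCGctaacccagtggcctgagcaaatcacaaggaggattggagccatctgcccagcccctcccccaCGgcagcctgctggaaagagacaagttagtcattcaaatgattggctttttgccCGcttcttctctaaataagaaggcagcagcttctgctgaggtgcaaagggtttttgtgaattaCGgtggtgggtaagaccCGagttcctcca
Nes: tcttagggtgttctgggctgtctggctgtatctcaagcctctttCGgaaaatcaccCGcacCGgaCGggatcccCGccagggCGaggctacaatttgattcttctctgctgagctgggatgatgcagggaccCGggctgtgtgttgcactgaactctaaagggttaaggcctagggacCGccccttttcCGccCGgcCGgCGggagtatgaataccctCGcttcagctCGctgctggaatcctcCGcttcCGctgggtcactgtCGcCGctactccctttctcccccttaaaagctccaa
Msi2: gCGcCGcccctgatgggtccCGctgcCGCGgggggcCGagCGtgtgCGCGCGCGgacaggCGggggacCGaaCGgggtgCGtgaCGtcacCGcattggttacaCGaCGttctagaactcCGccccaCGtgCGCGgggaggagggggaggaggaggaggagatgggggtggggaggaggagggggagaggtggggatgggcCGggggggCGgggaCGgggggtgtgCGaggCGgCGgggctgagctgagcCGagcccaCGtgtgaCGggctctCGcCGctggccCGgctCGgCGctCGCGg

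All 6 genes had a window under an H3K4me3 peak in both lists, in full except at Prom1 after water, across this range of CpG. The CpG ratio, the observed number of CG over the number implied by the C and G content, was 0.197 at Slc1a3 with 3 CG and 0.276 at Fabp7 with 6. It was 0.410 at Prom1 with 10 CG, 0.421 at Vim with 11, 0.702 at Nes with 18 and 1.00 at the first of 3 overlapping Msi2 windows with 39. Among 32851 promoter windows of the table, several of which can belong to 1 gene, those with a ratio below 0.2 lay under H3K4me3 in 2.23% of cases after crotonate and 1.30% after water. Slc1a3 was one of this class, just below its upper bound. The summits of its peak lay 395 bp downstream of the start after crotonate and 480 bp after water, outside the window. That peak also overlaps the noncoding gene Gm31340. For a ratio of 0.2 to 0.4, the class of Fabp7, the shares were 10.6% after crotonate and 7.83% after water. At 0.8 and above, where Msi2 falls, they were 95.1% and 92.0%. The peaks over the Slc1a3 and Fabp7 windows were longer than the median over the marked windows of their class. At Slc1a3 they measured 3.36 kb after crotonate and 3.11 kb after water, against class medians of 2000 and 1733 bp. At Fabp7 they measured 4.84 and 3.16 kb, against 1650 and 1387 bp. The bound of 3 kb used next lies just below the water widths of both genes. Of 210 windows under H3K4me3 in the lowest class after crotonate, 56 lay under a peak of 3 kb or more, and of 122 after water, 15 did. For the class of Fabp7 these counts were 121 of 794 after crotonate and 55 of 585 after water.

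**Figure D1:**
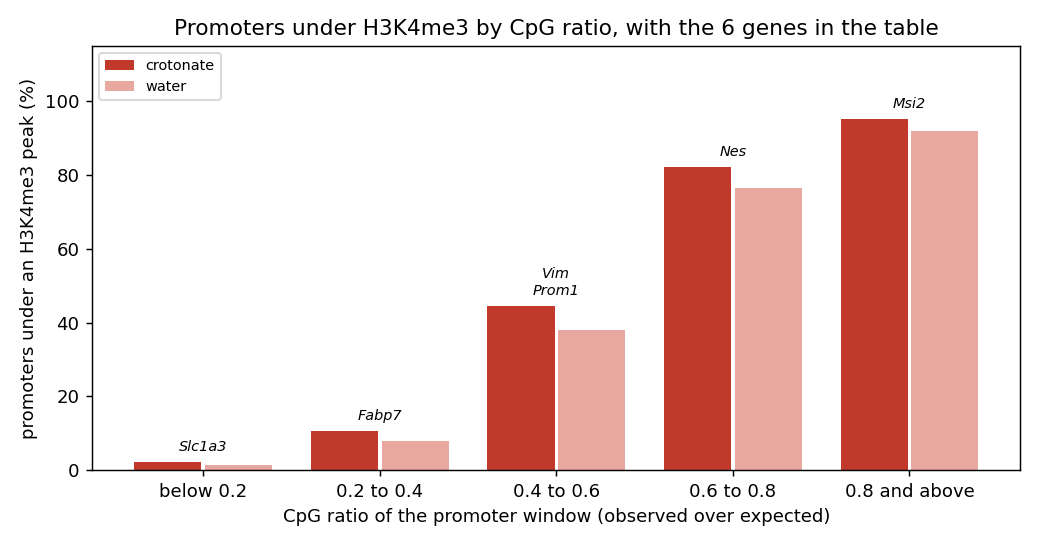
Share of RefSeq promoter windows under an H3K4me3 peak (y axis, percent; left bars crotonate, right bars water) by CpG ratio class (x axis), with the 6 genes that have a window written above their class. Slc1a3 stands in the class with 2.23% and 1.30% of windows under H3K4me3, and Msi2 in the class with 95.1% and 92.0%.

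Motif letters were searched on both strands of the windows, and a match is a description of the sequence only. GGGCGG, the GC box bound by Sp factors, occurred in 35.7% of all windows of the table and in those of Nes, Slc1a3, Prom1 and Msi2. In Nes it lay on the opposite strand at 73 and 62 bases before the start. CCAAT occurred in 37.4% of all windows and in those of Vim, Fabp7, Slc1a3, Prom1 and Msi2, with 2 copies at Vim and Fabp7 and 3 at Slc1a3. TATAAA occurred in 13.6% of all windows. Vim had it at 32 bases before the start, on the strand of the gene, and Slc1a3 had it at 161 bases before the start on the opposite strand. GTGGGAA, letters bound by the Notch effector RBPJ, occurred in 6.38% of all windows, and AACAAT, letters bound by Sox factors, in 10.7%. Neither was in the windows of these genes.

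Every one of the 7 genes had an H3K4me3 peak in both lists, as had 63.1% of all protein-coding genes after crotonate and 59.1% after water. With a peak in both lists, none of the 7 could count as a gain or a loss of the mark. Of all genes, 4.05% had a peak after crotonate only and 0.0274% after water only. The main peak of a gene was the water peak in the window with the highest −log10 q, followed into the crotonate list by overlap. It was wider after crotonate at 7 of 7 genes, and so it was at 95.1% of the 12929 genes whose main peak could be followed. Both edges lay farther out at 7 of 7, against 78.1% of those genes. The median ratio of widths was 1.25 over the 7 genes and 1.24 over all. Their peaks were long in either condition, with a median of 4840 bp after crotonate and 3163 bp after water, against 2170 and 1696 bp over all genes. This was not particular to the 7 genes. A wider list of 29 neural stem and radial glia genes, described below, had medians of 4480 and 3513 bp. Peak width can grow with depth, which the lists do not state. From the steps and floors of the deposited values, H3K4me3 fragments were estimated at 1.16 times as many after crotonate as after water, and the background at 1.80 times as deep. The part of depth in the widths was not tested.

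**Figure D2:**
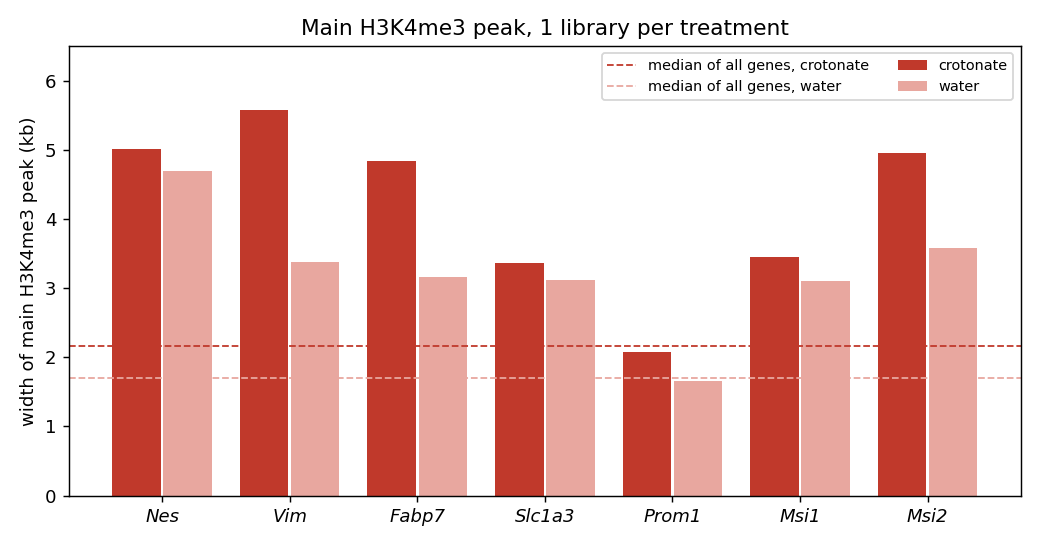
Width of the main H3K4me3 peak in kb (y axis) at each of the 7 genes, with crotonate on the left and water on the right of each pair and 1 library per bar. Dashed lines mark the medians over all genes, 2170 bp after crotonate and 1696 bp after water, and only Prom1 lies below both.

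Nes, on chromosome 3 from 87971093 to 87980451, had the widest main peak of the 7 after water and the lowest ratio of widths. The peak spanned 87970051 to 87975054 (5.00 kb) after crotonate and 87970279 to 87974975 (4.70 kb) after water, a ratio of 1.07. It reached 1042 bp upstream of the start and 3961 bp into the gene after crotonate, against 814 and 3882 bp after water. In this way 42.3% of the gene span was under H3K4me3 peaks after crotonate and 41.5% after water. The summit, the highest point of a peak, lay 66 bp downstream of the start after crotonate and 2975 bp downstream after water. This distance of 2909 bp between the summits exceeded that of 99.9% of the genes with a followed main peak, where the median was 40 bp. A wide peak leaves more room for such a distance, and after water the Nes peak was wider than at 99.2% of these genes. Peaks of like width were not compared. A broad peak can hold several maxima, and the deposited lists give the highest alone.

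Beyond the 3′ end of Nes lay a pair of weaker H3K4me3 peaks in both lists. The nearer measured 1.48 kb with −log10 q 5.23 after crotonate and 0.843 kb with 3.55 after water. The farther measured 0.478 kb with −log10 q 9.33 after crotonate and 0.407 kb with 2.08 after water. The farther peak ends 1614 bp from Bcan after crotonate and 1684 bp after water, closer to that gene than to Nes. Bcan encodes brevican, a proteoglycan of the brain extracellular matrix. No H3K27me3 peak lay within 41.9 kb of Nes after crotonate or 42.3 kb after water.

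Vim, on chromosome 2 from 13574311 to 13582826, was the gene with the largest ratio of the 7, and the change came with the joining of peaks. After crotonate 1 peak ran from 13572009 to 13577587 (5.58 kb). After water the main peak ran from 13573388 to 13576757 (3.37 kb), and a separate peak of 934 bp lay 300 bp upstream of it. The ratio of the main peaks was 1.66, and that of the crotonate peak to the sum of both water peaks was 1.30. The main peak extended 1379 bp farther upstream after crotonate, across the gap, and 830 bp farther into the gene. H3K4me3 covered 43.4% of the gene span after crotonate and 28.7% after water. A further peak of 422 bp, with its summit 4573 bp inside the gene, was in the crotonate list only, with −log10 q 5.70. The upstream side also faces a long noncoding gene, Gm9875, which lies 486 bp from the crotonate peak, so the mark there cannot be assigned to Vim alone.

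At Fabp7, on chromosome 10 from 57784923 to 57788450, the same joining was seen over a wider gap. After crotonate 1 peak spanned 57783337 to 57788176 (4.84 kb). After water the main peak spanned 57784526 to 57787688 (3.16 kb), with a peak of 365 bp separated from it by 750 bp upstream. The ratio of the main peaks was 1.53, and that to the sum of both water peaks was 1.37. The crotonate peak reached 1189 bp farther upstream and 488 bp farther downstream, and 92.2% of the span of this short gene was under it, against 78.4% after water. The summit stayed at the start in both lists, 7 bp upstream of it after crotonate and 8 bp upstream after water. Over all genes, the crotonate main peak lay over 2 or more water peaks at 4.01%, and at 7.81% of those whose main water peak measured 3 to 5 kb. Of the 7 genes this held at Vim and Fabp7, both in that range of widths. A joined peak is wider by the way it is called, with median ratios of 1.94 over joined and 1.23 over other peaks.

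**Figure D3:**
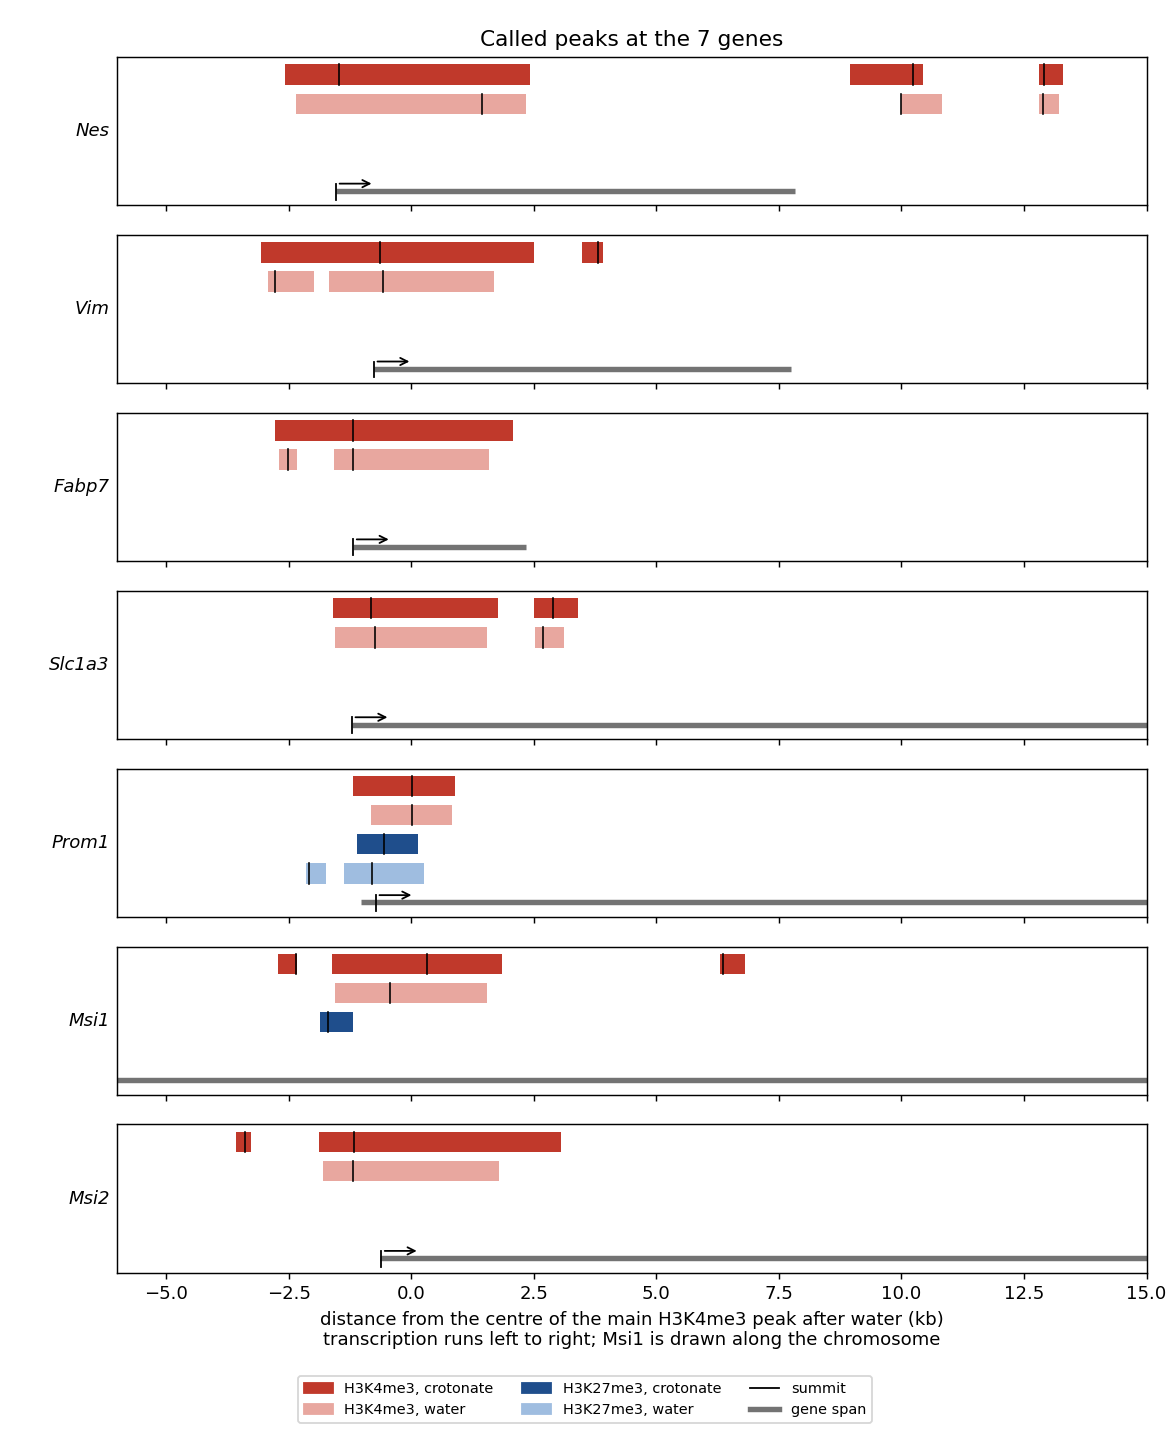
Called peaks of H3K4me3 (red) and H3K27me3 (blue) at the 7 genes, crotonate in the dark row above water in the pale row, against distance in kb from the centre of the main water H3K4me3 peak. The single crotonate peaks at Vim and Fabp7 stand over water peaks separated by gaps of 300 and 750 bp, H3K27me3 appears at Prom1 and Msi1 only, and 2 distant peaks inside and beyond Slc1a3 fall outside the plotted range.

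Slc1a3, on chromosome 15 from 8634124 to 8710807 with its start at the higher coordinate, had main peaks of nearly the same extent in both lists. It spanned 8707834 to 8711196 (3.36 kb) after crotonate and 8708042 to 8711152 (3.11 kb) after water, a ratio of 1.08. The edges moved by 44 bp upstream and 208 bp into the gene. A second peak in the first part of the gene, in both lists, measured 0.911 kb with −log10 q 17.1 after crotonate and 0.581 kb with 5.30 after water. Another pair of peaks was in the crotonate list only. One measured 641 bp and had its summit 47490 bp inside the gene with −log10 q 1.63, just above the lowest value of the list (1.31), and the other measured 602 bp and lay 4023 bp beyond the 3′ end with 6.28. The main peak also overlaps the long noncoding gene Gm31340 at its lower coordinate, and the strand of that gene was not read.

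The Musashi genes differed in the width ratio of the main peak, 1.38 at Msi2 and 1.11 at Msi1, and little in the ratio of all window bases under H3K4me3, 1.46 at Msi2 and 1.40 at Msi1. Msi2, on chromosome 11 from 88339382 to 88718306 with its start at the higher coordinate, had a main peak of 4.95 kb from 88714604 to 88719554 after crotonate. After water it measured 3.58 kb, from 88715873 to 88719455. The added width was on the side of the gene, by 1269 bp, with 99 bp on the upstream side. A further peak of 292 bp, 2630 bp beyond the gene's span on the upstream side, was in the crotonate list only, with −log10 q 5.14, inside the noncoding gene C030037D09Rik.

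Msi1, on chromosome 5 from 115359059 to 115455698, had its main peak well inside the annotated span. It ran from 115428784 to 115432237 (3.45 kb) after crotonate and from 115428838 to 115431945 (3.11 kb) after water, a ratio of 1.11. The peak overlaps the noncoding gene A930005G22Rik at its higher coordinate, and the strand of that gene was not read. Without a promoter entry for Msi1, its own strand and nearest start were not read either. A pair of short peaks at either side, 393 bp with −log10 q 2.16 and 513 bp with 2.57, were in the crotonate list only. The summits of the main peak lay 760 bp apart between the lists, farther than at 97.4% of genes, again with no comparison among peaks of like width.

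Across the 7 genes, 6 H3K4me3 peaks in the windows had no counterpart in water (1 at Vim, 2 at Slc1a3, 2 at Msi1 and 1 at Msi2), and 0 water peaks had no counterpart after crotonate. Of the genes with H3K4me3 in water, 19.1% had such a crotonate peak and 0.734% such a water peak, and 4 and 0 of the 7 had them. Long genes offer more room. Per Mb of window there were 7.98 such crotonate peaks at the 7 genes and 3.48 at all genes with H3K4me3 in water. All 6 peaks were weak for their list, with the strongest at percentile 15.6 of −log10 q. The crotonate H3K4me3 list held 16007 peaks and the water list 13221. The ranks of other peaks found after crotonate only were not read, so this weakness is not shown to be particular to the 7 genes.

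The ratios of main peak width differed among the 7 genes. Over all genes the middle of the distribution ran from 1.11 (25th percentile) to 1.46 (75th). Vim stood at percentile 85.5 of all genes, Fabp7 at 79.9, Msi2 at 68.7, Prom1 at 52.5, Msi1 at 24.8, Slc1a3 at 17.9 and Nes at 14.9. Genes with a main water peak of 3 to 5 kb, a range set after the widths of the 7 genes were seen, numbered 999. Their median ratio was 1.15. The water width is also the denominator of the ratio, so this lower median does not show a property of long peaks. In all, 6 of the 7 genes fall in that range. There Vim stood at percentile 96.6, Fabp7 at 95.4 and Msi2 at 90.0, against 39.7 for Msi1, 28.5 for Slc1a3 and 22.4 for Nes. The 6 genes thus lay on both sides of the median for peaks of their size. The ranks of Vim and Fabp7 leave out the second water peak that their crotonate peaks also cover. Against the sum of both water peaks their ratios were 1.30 and 1.37. These percentiles describe 1 library per treatment and carry no error.

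**Figure D4:**
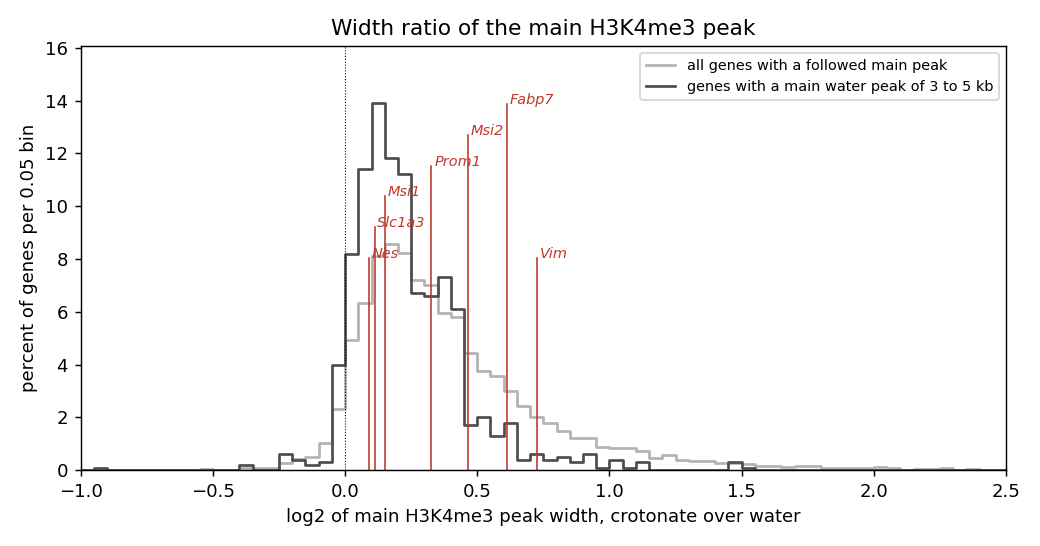
Distribution of the log2 ratio of main H3K4me3 peak width, crotonate over water (x axis), in percent of genes per bin of 0.05 (y axis), for all 12929 genes with a followed main peak (grey) and the 999 with a main water peak of 3 to 5 kb (black). Red lines mark the 7 genes, with Nes, Slc1a3 and Msi1 below the all-gene median ratio of 1.24 and Prom1, Msi2, Fabp7 and Vim above it. The water widths of Vim and Fabp7 leave out a second water peak under the crotonate peak.

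The authors' significance values order the genes differently from the widths. In the crotonate list, main peak −log10 q was 139 at Vim, 125 at Nes, 90.6 at Prom1, 67.8 at Msi2, 56.9 at Msi1, 53.7 at Fabp7 and 42.6 at Slc1a3. In the water list it was 39.9 at Vim, 80.8 at Nes, 59.5 at Prom1, 45.2 at Msi2, 44.4 at Msi1, 24.0 at Fabp7 and 43.6 at Slc1a3. Nes was thus high within both lists, at percentile 92.3 of the crotonate list and 93.0 of the water list. Fabp7 was long but of middling or low significance, with its width at percentile 98.3 and its −log10 q at 47.3 of the crotonate list, and 94.7 and 31.8 of the water list. Prom1 was the reverse, with width at percentile 63.0 and −log10 q at 74.8 of the crotonate list, and 57.2 and 77.9 of the water list. The scales and lengths of the lists differ, so the ranks are read within each list and show no change between them.

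**Figure D5:**
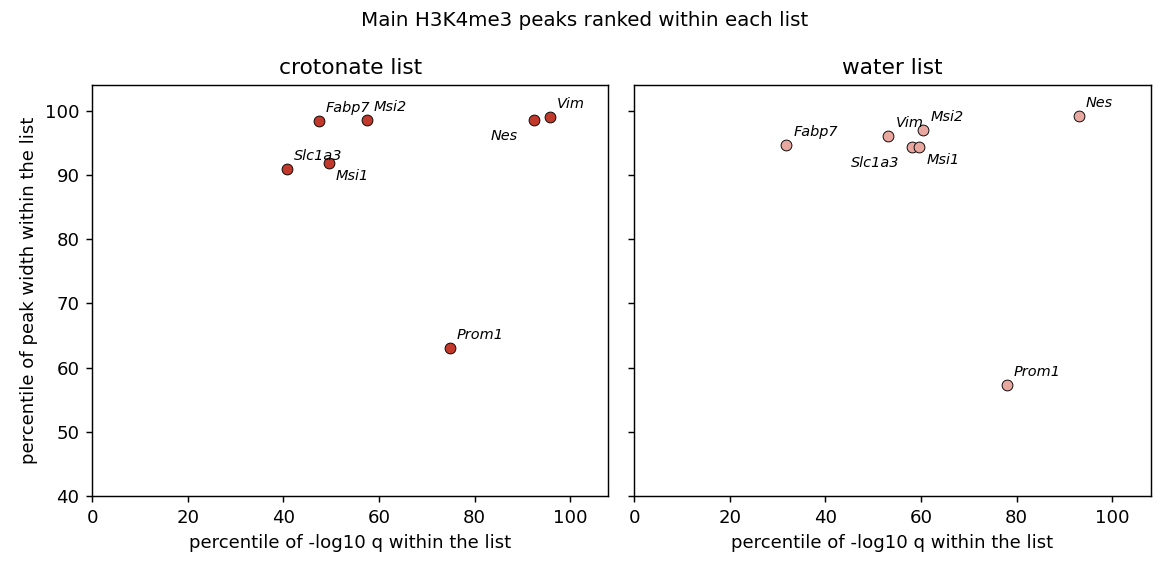
Percentile of main H3K4me3 peak width (y axis, drawn from 40) against percentile of −log10 q (x axis), each within its own list, for the 7 genes in the crotonate list (left) and the water list (right). Nes lies at the upper right of both panels, Fabp7 far left of it at a like width, and Prom1 alone below percentile 64 of width.

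Fold enrichment, the caller's ratio of summit signal to local background, depends on that background as much as on the signal. Read as a ratio with 1 added to both terms, it implied a local background of 7.0 at the Vim summit in the water list, higher than at 98.8% of that list's peaks, and the fold there was 8.73. In the crotonate list Vim had a background of 2.61 and a fold of 32.2. At Slc1a3 the background was 4.0 in the crotonate list with a fold of 11.6, and 1.00 in the water list with a fold of 19.7. Fabp7 had 1.00 in the crotonate list with a fold of 22.8, and 2.00 in the water list with 10.7. At the other genes the folds were 26.3, 26.5, 23.3 and 26.7 in the crotonate list, in the order Nes, Prom1, Msi1 and Msi2, and 24.3, 27.1, 21.9 and 20.1 in the water list.

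H3K27me3 was called at 2 of the 7 genes after crotonate, Prom1 and Msi1, and at 1 after water, Prom1, compared with 17.2% and 12.2% of all protein-coding genes. By the same steps and floors, H3K27me3 fragments were estimated at 0.811 times as many after crotonate as after water, with the background at 1.80 times as deep. The part of depth in the H3K27me3 calls was not tested. At Nes, Vim, Fabp7, Slc1a3 and Msi2 no H3K27me3 peak lay in the window in either list. The nearest lay 97.4 kb from Fabp7 after crotonate and 152 kb after water, and 58.8 kb from Slc1a3 after crotonate and 65.3 kb after water. It was 208 kb from Vim after crotonate and 209 kb after water, and 249.6 kb from Msi2 in both.

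Prom1, on chromosome 5 from 43993621 to 44102047 with its start at the higher coordinate, carried both marks over the same promoter under both treatments. The H3K4me3 peak spanned 44100126 to 44102207 (2.08 kb) after crotonate and 44100186 to 44101845 (1.66 kb) after water, with the summit at the same base, 738 bp downstream of the annotated start. The H3K27me3 peak spanned 44100879 to 44102114 (1.24 kb, −log10 q 7.85) after crotonate. After water it spanned 44100755 to 44102390 (1.64 kb, 4.55), and a second peak of 400 bp farther upstream (2.73) was in the water list only. The H3K4me3 edge moved 362 bp upstream, while H3K27me3 was called over 1236 bp of the window after crotonate and 2036 bp after water.

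The promoter at chr5:44101687-44101986 (minus strand) is shown because this shift crosses it. Capitals mark the 159 bases under H3K4me3 in both lists, and the 141 bases in lower case were under H3K4me3 after crotonate only.
Prom1: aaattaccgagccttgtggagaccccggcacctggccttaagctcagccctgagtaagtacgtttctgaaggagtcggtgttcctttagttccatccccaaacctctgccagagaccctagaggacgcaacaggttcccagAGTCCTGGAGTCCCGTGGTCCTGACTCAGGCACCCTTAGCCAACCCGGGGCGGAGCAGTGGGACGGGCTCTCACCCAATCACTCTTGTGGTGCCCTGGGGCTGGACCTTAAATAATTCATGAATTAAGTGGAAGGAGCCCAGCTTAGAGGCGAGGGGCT
H3K27me3 peaks covered all 300 bases in both lists. The capitals begin 109 bases before the start and hold the GC box at 62 bases and the CCAAT at 35 bases before it. After crotonate the whole H3K27me3 peak lay within the H3K4me3 peak (1236 bp shared), and after water 1091 of its 1636 bp did. In bulk cells both marks at 1 promoter and cells that carry 1 mark each cannot be told apart. A second annotated start of Prom1, with its window at 44094719 to 44095018, had neither mark in either list. The main Prom1 peak stood at percentile 72.6 of −log10 q in the crotonate H3K27me3 list and 48.6 in the water list. In the water list the Prom1 fold was 4.05 over an implied background of 3.00, which exceeded that of 97.7% of the list's peaks, and in the crotonate list it was 6.54 over 1.00. With a −log10 q of at least 5 or a fold of at least 5 required, Prom1 kept its crotonate peak and had no water peak.

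Msi1 was the gene that gained H3K27me3, as 5.36% of all genes did, or 5.54% of those with H3K4me3 and no H3K27me3 in water. Its peak spanned 115428539 to 115429208 (670 bp) after crotonate, and after water the nearest peak was 700.0 kb away. It overlapped the H3K4me3 peak by 425 bp at its edge. With −log10 q 1.60 and a fold of 3.30 it stood at percentile 5.95 of the crotonate list, and it was absent with lists of equal length. No H3K27me3 was lost at the 7 genes, against 0.402% of all. The crotonate H3K27me3 list held 15879 peaks over 33.0 Mb, and the water list 7643 peaks over 20.7 Mb.

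A wider list of 29 neural stem and radial glia genes, among them Sox2, Pax6, Hes1, Hes5 and Notch1, was read in the same way. All 29 had H3K4me3 in both lists, against 63.1% of all genes after crotonate and 59.1% after water. The main peak was wider after crotonate at 29 of 29, against 95.1% of all genes with a followed main peak. The median ratio was 1.24 over these 29 genes and 1.24 over all genes. H3K27me3 was in the windows of 6 after crotonate and 4 after water (Hes1, Gli3, Bmi1 and Lhx2 in both), against 17.2% and 12.2% of all genes. The 2 genes that gained it, where 5.36% of all genes did, were Hopx, which encodes a small homeodomain protein of outer radial glia in humans, with a peak of 575 bp, and Fut4, which encodes a fucosyltransferase, with one of 579 bp. The widely used genes Actb and Gapdh had H3K4me3 in both lists and no H3K27me3, with main peaks of 4.42 and 4.16 kb after crotonate and 3.36 and 3.66 kb after water.

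Marker genes of the labelled cell type and of others were read in the same windows. The 6 neural stem and progenitor markers are all genes already counted, Nes and Fabp7 among the 7 and Sox1, Sox2, Pax6 and Hes5 in the wider list. All 6 had H3K4me3 in both lists and no H3K27me3. H3K4me3 was on 1 of 5 endothelial markers (Kdr) in both lists, on 2 of 6 microglial markers after crotonate and 1 after water, and on 1 of 5 fibroblast markers after crotonate and 0 after water. It was on 4 of 6 neuronal, 4 of 4 intermediate progenitor, 3 of 5 astrocyte and 3 of 6 oligodendrocyte lineage markers in each list. Over all protein-coding genes the H3K4me3 shares were 63.1% after crotonate and 59.1% after water. H3K27me3 was on 0 of 5 astrocyte and 0 of 5 endothelial markers in both lists. Of 6 neuronal markers, 4 had it after crotonate and 3 after water, and 3 of 4 intermediate progenitor markers in each list. Of 6 oligodendrocyte lineage markers, 3 had it after crotonate and 1 after water. It was on 1 of 6 microglial and 1 of 5 fibroblast markers after crotonate, and on 0 after water. Over all genes the H3K27me3 shares were 17.2% and 12.2%. A mark on a promoter does not show that cells of a type were present.

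By the cover of the window under the peaks of the 4 lists, the genes most like Nes were Gsk3b and Dnajb4, at distances of 0.0130 and 0.0174 on the log2 scale. Those most like Vim were H2bc13 and Srrt, those most like Fabp7 were Gprc5b and Rmnd5b, and those most like Slc1a3 were Zbtb22 and Cbx5. For Msi2 they were Ndufv2 and Astn2. The genes with both marks had fewer near neighbours, with C2cd4b and Tifa at 0.341 and 0.551 from Prom1 and Mrgbp and Rnaseh2a at 0.213 and 0.273 from Msi1. The likeness is of covered length alone, over 4 lists.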

How the data were processed

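Neural progenitors were profiled by CUT&Tag with 1 library per mark and treatment, and the peaks of 4 libraries were used as deposited. The authors' lists give 1-based positions and lengths in bp laid out as MACS2 writes them, per the file headers. Summit pileup, as deposited, is a coverage signal that the authors' caller multiplied by 1 factor per library. The −log10 of p and of q and the fold enrichment, a linear ratio, are the authors' values per the file headers. Bowtie2 2.4.1, SAMtools 1.10, Picard 2.22.0, MACS2 2.2.7.1 and the build GRCm38 come from the submitters' processing notes. Settings and the background library: not given in the sources used here.

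Gene spans came from the RefSeq table of GRCm38.p6, the build of the peaks. A peak counted for a gene when it overlapped the span and 5 kb either side by at least 1 bp, so a peak may belong to a neighbour. A gain is a mark called in the crotonate list and not in the water list, and a loss is the converse. Relative depth was read from the step of which all pileups are whole multiples (100% within 0.006) and the lowest implied background per bp of the shortest peak, which assumes that libraries were scaled to their background. Peaks were compared in Python 3.11.15 with numpy 2.4.6 and pandas 2.3.3, on code tested on simulated data. The genes named are the 7 members, up to 4 genes of the wider list that gained and 4 that lost each mark, Actb and Gapdh, and the 2 most like genes of each member, by Euclidean distance over log2(1 + bp). Other genes of the wider list were named after their values were seen. One gene of the wider list is not reported here and is left out of its counts. Members and lists were chosen with earlier results of these data known. Alternatives were other windows, thresholds, list lengths, overlaps and joined peaks. Depth is stated in no file, so no interval is given.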

Additional observations from a re-analysis of the deposited data

How the results depend on the processing

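All 7 genes had H3K4me3 in both lists under every alternative tried, and so none gained or lost it. All 7 main peaks were also wider after crotonate under each. The alternatives were the gene span alone, 2 or 10 kb either side, and fold enrichment or −log10 q of at least 5. Lists of equal length, reciprocal overlap of 50%, and peaks joined over gaps of 500 bp were tried too. Width ratios stayed within a factor of 1.5 of those reported in 56 of 56 cases, between 1.07 and 1.66. Most alternatives select the same pair of peaks and cannot alter its width, so this count is no check on the ratios. The only ratios that changed were those of Vim with joined peaks, to 1.21, and of Msi1 with 10 kb either side. At Msi1 the wider window took in a different water peak with a higher −log10 q, beyond the 5 kb flank. The ratio of 1.25 there belongs to that peak, and the peak described above kept its ratio of 1.11. H3K27me3 was less steady. The number of genes with it after crotonate was 1 with the fold threshold, the −log10 q threshold or lists of equal length, with 1236 bp covered in place of 1906. After water it was 0 genes and 0 bp with either threshold, and 1293 bp in place of 2036 with the gene span alone. Gains numbered 0 with lists of equal length. With either threshold the 1 gain was at Prom1, whose water peaks fell below the threshold, and not at Msi1. These thresholds remove peaks by construction, and the cause of what is left was not tested. No paired analysis was possible because each mark and treatment has 1 library. Depth limits every absence here: a peak just under the caller's threshold is not listed.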

Other observations

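The background values implied by the deposited fold enrichments were whole numbers, within 0.01, for 46.0% of H3K4me3 peaks after crotonate and 46.8% after water. For H3K27me3 the shares were 37.5% after crotonate and 23.7% after water. The medians lay at 1.30 for H3K4me3 after crotonate and 1.29 after water, so the fold of a peak can change much with a difference of 1 in its background. This touches the folds quoted for Vim, Fabp7, Slc1a3, Prom1 and Msi2, whose backgrounds were whole numbers in at least 1 list, and the fold of the Msi1 H3K27me3 peak.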
